A study of Rattus norvegicus with 4 samples.

Results

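Chaer is a long noncoding RNA of the heart. An siRNA against it was compared with a control siRNA in neonatal rat ventricular myocytes, without and with phenylephrine. Of the 26406 features listed, 61 were at least 2-fold lower with Chaer siRNA in both conditions, by the ratio defined below. The 45 of these that met the further limits below are the members described here. They were chosen by their measured values. A member had a mean of at least 1 RPKM (read counts divided by gene length and by library depth) over the 4 libraries. Its log2 ratio of (RPKM + 1) was at most -1 for Chaer siRNA over control siRNA in each condition. The mean of its 2 phenylephrine ratios lay above -0.8 and below 1, and H19 was left out.

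The cells were ventricular myocytes from the hearts of 2-day-old Sprague Dawley rats in primary culture. All 4 groups were transfected with an siRNA for 6 h, so the siNeg group is no untransfected control. The groups were siNeg (negative control siRNA), siChaer (Chaer-specific siRNA), siNeg PE and siChaer PE, the last pair with 50 µM phenylephrine, and RNA was collected after 48 h. Each group was 1 library, and the labels do not say whether the libraries came from separate cultures. No value below therefore has a replicate error, and no test is given.

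Chaer is known to bind the catalytic subunit of the Polycomb repressive complex, the enzyme that places a silencing mark on histone H3, and to interfere with its action at genes of cardiac growth. Phenylephrine stimulates α1-adrenergic receptors and makes cultured myocytes enlarge, a common model of pathological hypertrophy. An siRNA directs cleavage of the RNA it matches. The comparison with a control siRNA was made without and with phenylephrine, and the series asked what Chaer contributes to the response to the agonist.

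The libraries held 33944988 to 39155363 reads in listed features. The features carry Ensembl gene identifiers, except H19, which the files list by its symbol. The reference tables used here (RefSeq, assembly GRCr8) paired 0 of the other 26405 identifiers with a symbol. The members are therefore described by level, length and pattern, with 2 identifiers printed, and neither a function nor a sequence is given for any of them. For the same reason the labelled cell type was not checked against its markers, contributions of other cell types were not tested, and the level of Chaer itself was not analysed here.

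The level filter kept 12226 features. Of these, 136 were at least 2-fold lower for siChaer over siNeg (1.11%) and 104 for siChaer PE over siNeg PE (0.851%), and 61 were so in both (0.499%). From these 61 the band on the phenylephrine ratio removed 15, all with a mean ratio at or below -0.8, and H19 was set aside, which left the 45. The filter on low levels removed 0 features that met both ratios, which already require at least 1 RPKM in each control siRNA library. Because the rule used these ratios, the members' own values are a description and support nothing about the siRNA.

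The members' median level was near that of all features with control siRNA and well below it with Chaer siRNA. The rule used these levels, so the match with control siRNA is no independent sign of a typical level. The members' median was 11.7 RPKM in siNeg and 4.01 RPKM in siChaer. With phenylephrine it was 9.97 RPKM in siNeg PE and 4.06 RPKM in siChaer PE. Over all 12226 features the median level was 11.5, 11.5, 10.8 and 10.8 RPKM in siNeg, siChaer, siNeg PE and siChaer PE. In bulk RNA, fewer cells of a type and less RNA per cell cannot be told apart, which holds for each difference here.

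Levels spanned a wide range within each library. They ran from 2.62 to 252 RPKM in siNeg, from 0.493 to 113 RPKM in siChaer, from 1.31 to 153 RPKM in siNeg PE and from 0.117 to 62.5 RPKM in siChaer PE. Together the members took 0.363% of all reads in siNeg, 0.145% in siChaer, 0.269% in siNeg PE and 0.109% in siChaer PE. The 5 members with the most reads supplied 55.4% of the members' reads summed over the libraries, so the combined share mainly follows a few long or abundant features.

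In each of the 45 members, both Chaer siRNA libraries lay below both control siRNA libraries. Over all features tested this held for 22.0%, but the rule favours it, so the count is no sign of stability. The highest library was siNeg for 35 members and siNeg PE for 10. The lowest was siChaer PE for 36 and siChaer for 9. Without overlap, these counts only restate which phenylephrine ratios were below 0. Over all features 60.5% were below 0 with control siRNA and 62.1% with Chaer siRNA.

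**Figure D1:**
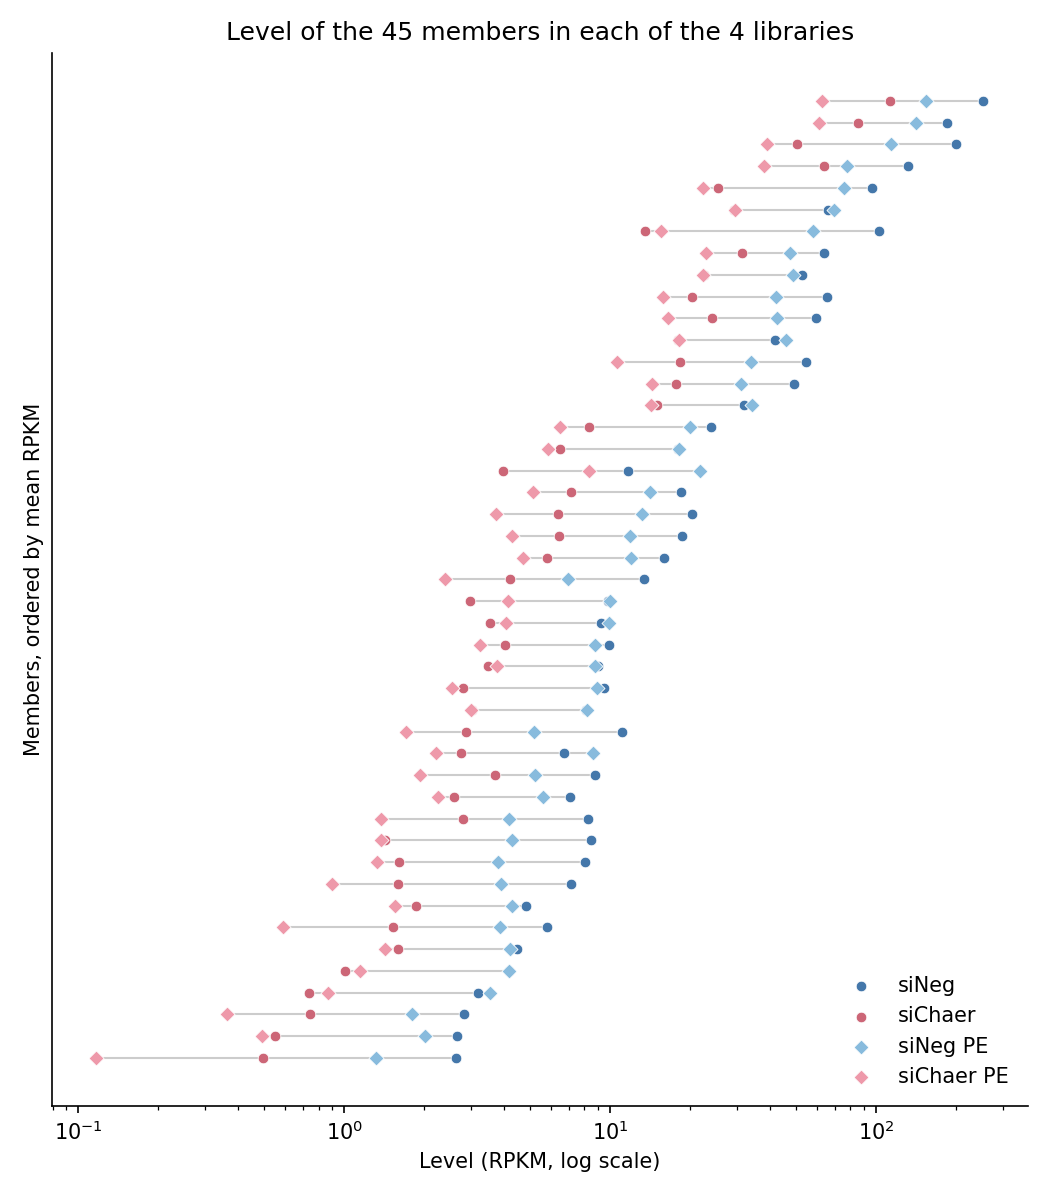
Level of each member (1 row each, ordered by mean RPKM, horizontal log axis in RPKM) in the 4 libraries; circles are libraries without and diamonds with phenylephrine, blue is control siRNA and red Chaer siRNA, and grey lines join the lowest to the highest library. In all 45 rows both red points lie left of both blue points, and some points coincide.

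On the log2 scale of (RPKM + 1), the median member ratio was -1.28 for siChaer over siNeg, with a range from -2.83 to -1.01. For siChaer PE over siNeg PE the median was -1.20, with a range from -1.83 to -1.01. The medians over all features tested were 0.02 and -0.03. The lower and upper quartiles of the members were -1.46 and -1.16 without and -1.37 and -1.09 with phenylephrine, so most lay near the limit. Of the members, 1 of 45 was at least 4-fold lower on this scale without phenylephrine (0.0736% of all features) and 0 of 45 with it (0.0245%).

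On RPKM itself, with no pseudocount, the members were 2.04 to 7.55 times lower with Chaer siRNA, with a median of 2.87. With phenylephrine they were 2.06 to 11.2 times lower, with a median of 2.78. The 95% counting intervals of both ratios lay wholly beyond 2-fold for 38 of 45 members, against 0.605% of all features tested. The rule chose members on these ratios, so the gap between the 2 shares is largely built in. These intervals cover counting error only, since reads were not marked by molecule and no culture was repeated.

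The member with the lowest mean of both Chaer siRNA ratios was ENSRNOG00000040350, whose gene model is only 84 bp long. Its level was 102 RPKM in siNeg (318 reads), 13.6 RPKM in siChaer (46 reads), 57.6 RPKM in siNeg PE (171 reads) and 15.5 RPKM in siChaer PE (53 reads). The siNeg library stood highest and both Chaer siRNA libraries were low and near each other. The level was 7.55 times lower (95% counting interval 5.53 to 10.5) with Chaer siRNA alone and 3.73 times lower (2.73 to 5.18) with phenylephrine. Because RPKM divides by length, the high level of this short model rests on few reads.

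ENSRNOG00000007159 came next, with a gene model of 780 bp. Its level was 96.6 RPKM in siNeg, 25.5 RPKM in siChaer, 75.5 RPKM in siNeg PE and 22.4 RPKM in siChaer PE. Here the control siRNA libraries were high and the Chaer siRNA libraries low in both conditions. It was 1.28 times lower (1.21 to 1.35) for siNeg PE over siNeg and 1.14 times lower (1.03 to 1.26) for siChaer PE over siChaer. The last ratio depends on the scaling. As a log2 ratio of (RPKM + 1) it was -0.18, and -0.07 with TMM scaling. The level was 3.79 times lower (3.50 to 4.10) without and 3.37 times lower (3.10 to 3.68) with phenylephrine, on 713 to 2787 reads per library.

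The most abundant member, with a mean of 145 RPKM and a gene model of 1958 bp, was lower along both factors. Its level was 252 RPKM in siNeg, 113 RPKM in siChaer, 153 RPKM in siNeg PE and 62.5 RPKM in siChaer PE. It was 2.24 times lower (2.18 to 2.30) with Chaer siRNA alone and 2.46 times lower (2.37 to 2.54) under phenylephrine, and its mean phenylephrine ratio of -0.78 was the lowest among the members.

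The third most abundant member, of 2553 bp and a mean of 101 RPKM, also ranked 3 from the lowest by mean Chaer siRNA ratio. Its level went from 199.97 RPKM in siNeg to 50.5 RPKM in siChaer, and from 113 RPKM in siNeg PE to 38.9 RPKM in siChaer PE. That is 3.96 times lower (3.84 to 4.08) and 2.91 times lower (2.81 to 3.02). This member and the most abundant one rest on at least 4059 reads in every library, so counting error hardly limits either.

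The least abundant member, with a mean of 1.14 RPKM and 2308 bp, was the farthest below its control on RPKM itself with phenylephrine, though not without it. It had 224 reads in siNeg, 46 in siChaer, 107 in siNeg PE and 11 in siChaer PE. Its level was 5.32 times lower (3.86 to 7.47) without and 11.2 times lower (6.04 to 23.2) with phenylephrine. The log2 ratios of (RPKM + 1) were only -1.28 and -1.05, since the added 1 weighs most on low levels.

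On RPKM itself, members of different abundance differed in how far they were from 2-fold. The 24 members with a mean of 1 to 10 RPKM were a median of 3.24 times lower without and 2.99 times lower with phenylephrine. For the 16 members of 10 to 50 RPKM these medians were 2.77 and 2.64, and for the 5 members above 50 RPKM they were 2.24 and 2.46. The order of the first medians is partly built in, because a low member needs a larger change of RPKM to pass a limit set on RPKM + 1. On the log2 scale of (RPKM + 1), the medians from low to high level were -1.27, -1.35 and -1.16 without phenylephrine. With it they were -1.13, -1.29 and -1.28, so the order seen on RPKM itself was not kept.

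**Figure D2:**
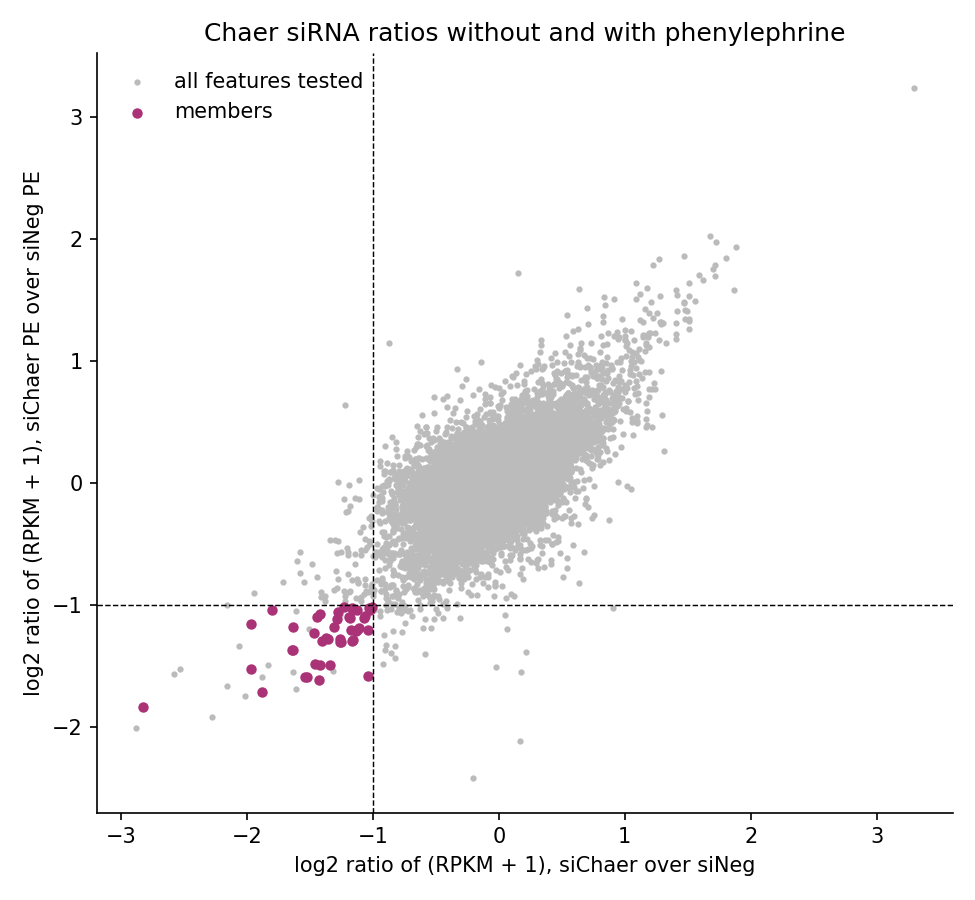
Log2 ratio of (RPKM + 1) for siChaer over siNeg (horizontal) against siChaer PE over siNeg PE (vertical), 1 point per feature, members in purple and all 12226 features tested in grey; dashed lines mark the limit of -1 on each axis. The members fill the lower left corner, most of them near the limit, and the grey points in that corner are H19 and the 15 features left out by the band.

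The 2 Chaer siRNA ratios of a member come from separate libraries, and they were mostly close. The ratio with phenylephrine minus that without it had a median of 0.07 on the log2 scale, with a range from -0.54 to 0.99. Over all features tested the median of this difference was -0.06. It lay within 0.25 of 0 for 35 of 45 members (59.8% of all features) and was over 0.5 in size for 4 of 45 (9.79%). The ratio was lower without phenylephrine in 24 members and lower with it in 21, a split for which no share over all features was taken. The members were required to be low in both, which limits how far the ratios can part.

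On RPKM itself, which weighs low levels fully, 6 of 45 members were over 0.5 apart (15.4% of the 12223 features with reads in every library), 3 in each direction. They were the 4 above and 2 of low level. Of the latter, the member of 2308 bp described above had a difference of -1.08 (-2.09 to -0.08), the largest in size, on as few as 11 reads. The other, of 1329 bp, had -0.79 (-1.43 to -0.14) on as few as 32 reads.

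Among the 4 members over 0.5 apart on (RPKM + 1), 3 had the lower ratio without phenylephrine. For ENSRNOG00000040350 the difference was 0.99, and on RPKM itself it was 1.02 (0.39 to 1.65). A member of 3407 bp followed, at 8.44 RPKM in siNeg, 1.42 RPKM in siChaer, 4.28 RPKM in siNeg PE and 1.37 RPKM in siChaer PE. Its Chaer siRNA libraries were level with each other while siNeg stood above siNeg PE, and it was 5.96 times lower (5.11 to 6.98) without and 3.12 times lower (2.64 to 3.70) with phenylephrine. The third, of 754 bp, was 5.01 times lower without and 2.85 times lower with phenylephrine.

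The fourth went the other way. This member of 2751 bp was at 6.70 RPKM in siNeg, 2.74 RPKM in siChaer, 8.62 RPKM in siNeg PE and 2.22 RPKM in siChaer PE. It was 2.44 times lower (2.13 to 2.80) without and 3.89 times lower (3.37 to 4.50) with phenylephrine, a difference of -0.54 on the log2 scale of (RPKM + 1). Its siNeg PE library was the highest and its siChaer PE library the lowest.

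Most members were lower in the phenylephrine library than in its untreated partner, within the band that the rule allowed. The median ratio was -0.38 for siNeg PE over siNeg, against -0.07 for all features, and -0.24 for siChaer PE over siChaer, against -0.10. Below 0 were 35 of 45 members with control siRNA (60.5% of all features) and 36 of 45 with Chaer siRNA (62.1%). At least 1.5-fold lower were 17 of 45 with control siRNA (4.02%) and 8 of 45 with Chaer siRNA (5.91%). On the scale of (RPKM + 1), as for the values above, 0 of 45 were at least 2-fold lower or higher in either comparison. The background was 0.605% lower and 1.12% higher with control siRNA and 0.875% and 1.10% with Chaer siRNA. The band on the mean ratio limits these counts of members. With a pseudocount of 0.1, 2 of 45 were at least 2-fold lower with control siRNA and 2 of 45 with Chaer siRNA. The siNeg library is the denominator both of siChaer over siNeg and of siNeg PE over siNeg, so a high value in that single library would lower both ratios.

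Both phenylephrine ratios were below 0 in 32 members (44.8% of all features), both above 0 in 6 (22.2%) and of opposite sign in 7 (33.0%). The mean of both was below -0.5 in 14 members (5.68%), although the band removed every feature at or below -0.8. Another 14 members had both ratios within 0.25 of 0 (38.4%). The last group was low with Chaer siRNA at nearly the same level with and without the agonist.

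The member with the highest mean phenylephrine ratio, 0.87, stood apart from the rest. It had a gene model of 774 bp and levels of 11.7 RPKM in siNeg, 3.97 RPKM in siChaer, 21.7 RPKM in siNeg PE and 8.35 RPKM in siChaer PE. Each phenylephrine library was higher than its untreated partner, and each Chaer siRNA library lower than its control. The phenylephrine ratio was 1.85 (1.62 to 2.12) with control and 2.11 (1.70 to 2.63) with Chaer siRNA, while the level was 2.95 times lower (2.39 to 3.66) and 2.59 times lower (2.24 to 3.01) with Chaer siRNA. The Chaer siRNA library with phenylephrine did not reach the level of siNeg.

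**Figure D3:**
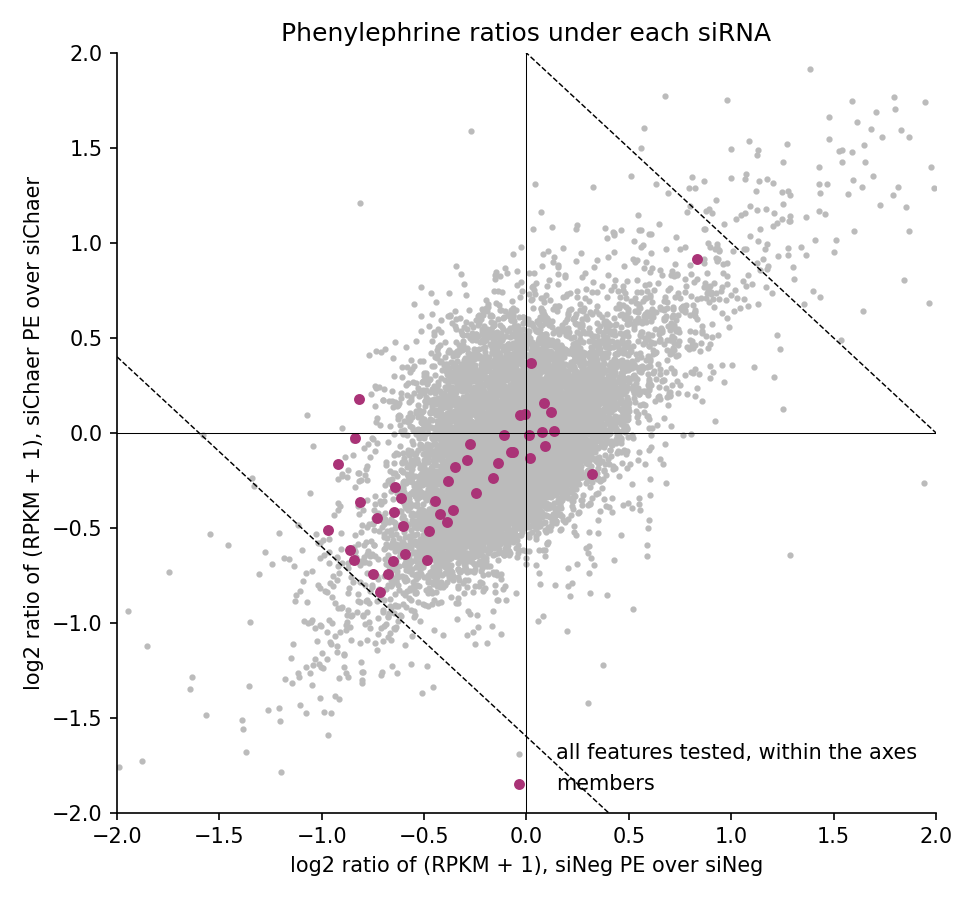
Log2 ratio of (RPKM + 1) for siNeg PE over siNeg (horizontal) against siChaer PE over siChaer (vertical), members in purple, features tested in grey, axes cut at 2 in each direction; dashed lines bound the band on the mean of both ratios. Members run from the lower edge of the band to the origin, 32 of 45 lie below 0 on both axes, and 1 member stands alone near the upper edge with a mean of 0.87.

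Gene model length was not part of the rule. The members' median length was 1689 bp, against 1953 bp for all features tested, and they ranged from 84 to 9904 bp. The lower and upper quartiles were 819 and 2759 bp for members and 1238 and 3068 bp for all features. Models under 1000 bp made up 31.1% of the members and 17.8% of all features, and 1 member was under 200 bp (1.30% of all features). This is a description of 45 features with no test. The longest member, of 9904 bp, was 2.59 times lower (2.37 to 2.82) without and 2.74 times lower (2.49 to 3.01) with phenylephrine.

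**Figure D4:**
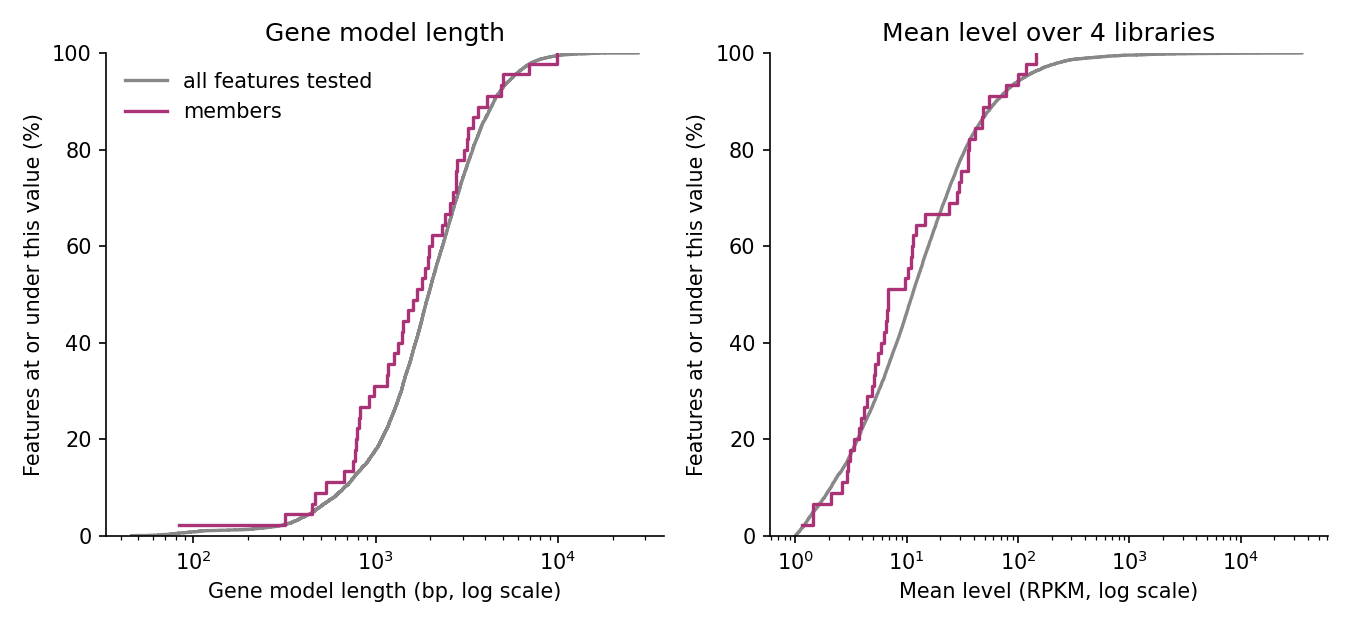
Cumulative share of features (vertical, percent) by gene model length in bp (left) and by mean RPKM over the 4 libraries (right), both on log axes, for the 45 members (purple) and all 12226 features tested (grey). The member curve for length lies left of the grey curve between its lower quartile of 819 bp and its median of 1689 bp, and the level curves cross more than once.

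By level, 53.3% of the members had a mean of 1 to 10 RPKM, 35.6% of 10 to 50 RPKM and 11.1% above 50 RPKM. The corresponding shares of all features tested were 46.2%, 40.7% and 13.1%. Read support varied too, and it depends on gene length as well as on level. The lowest library of a member had under 50 reads in 9 members, at least 200 in 24 and at least 1000 in 9, and the smallest count was 9 reads.

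The limit of -1 cut through a continuous range. The 3 members just inside it had -1.01, -1.02 and -1.02 as the higher of their Chaer siRNA ratios. The 3 features just outside had -0.99, -0.99 and -0.97. The first of those outside was at 7.12 RPKM in siNeg, 0.821 RPKM in siChaer, 2.87 RPKM in siNeg PE and 0.940 RPKM in siChaer PE, with ratios of -2.16 and -0.99. The second was at 97.1, 48.4, 73.1 and 35.1 RPKM in siNeg, siChaer, siNeg PE and siChaer PE, with ratios of -0.99 and -1.04.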

How the data were processed

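RNA was sequenced from 4 libraries of neonatal rat ventricular myocytes, prepared with a stranded TruSeq kit, per the labels' protocols. The submitters' processing notes name TopHat2 and the build rn5, while no label or header names the counting tool, annotation, strand setting or filters. The authors deposited whole-number read counts and RPKM values per feature, per the file headers. Dividing one by the other gave gene lengths and read totals, of which 3.88% to 4.29% lay outside the listed features.

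Log2 ratios used RPKM plus a pseudocount of 1, which understates changes of low features. Intervals at 95% were exact Poisson for counts, exact binomial for ratios and a normal approximation on log counts for differences of ratios. With 1 library per group and members chosen on these contrasts, no test was run. The selection script was checked on simulated counts, whose values are not given. The members, lists and rules were chosen with earlier results of these data known. The 28 gene lists could not be applied without symbols. Of the planned naming rule, the first items (the lowest mean Chaer siRNA ratios) gave the 2 identifiers printed; other members are described without one, and features of like pattern are not given. TMM factors came from edgeR 4.0.16 (R 4.3.3); other values came from Python 3.11.15 with scipy 1.17.1. Alternatives varied the pseudocount, filter, fold limit, band and scaling.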

Additional observations from a re-analysis of the deposited data

Results flagged for a closer look

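One member of 2751 bp had phenylephrine ratios of opposite sign under the 2 siRNAs, with both counting intervals clear of no change on the deposited scaling. Its RPKM ratio was 1.29 (1.16 to 1.42) for siNeg PE over siNeg and 0.808 (0.680 to 0.958) for siChaer PE over siChaer, and its log2 ratio of (RPKM + 1) under Chaer siRNA minus that under control siRNA was -0.54. With 1 library per group this difference was not tested. TMM scaling raised the median log2 ratio of siChaer PE over siChaer, taken over all features, by 0.099. That shift is toward no change for this member under Chaer siRNA, and its interval was not taken under that scaling.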

How the results depend on the processing

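The number of members was 85 with a pseudocount of 0.1, 13 with a pseudocount of 5 and 223 with a 1.5-fold limit, of which 38, 12 and 45 were among the 45. It stayed between 31 and 62 under the other settings run. Among these, TPM gave 62, a mean of at least 5 RPKM gave 31 and dropping the band gave 60. The median log2 Chaer siRNA ratio of the 45 members was -1.51 without and -1.44 with phenylephrine at a pseudocount of 0.1, and -0.95 and -0.87 at a pseudocount of 5. A pseudocount weighs on low levels by construction. The median phenylephrine ratios stayed below 0 under each pseudocount and scaling run, between -0.45 and -0.29 with control siRNA and between -0.30 and -0.10 with Chaer siRNA. With TMM scaling 33 of 45 members were below 0 with control siRNA and 32 with Chaer siRNA. The medians over all features were then -0.002 and 0.001. Of the 45 members, 12 were still at least 2-fold lower in both Chaer siRNA ratios with a pseudocount of 5, 41 with median-ratio scaling and 43 on TPM, and all 45 with a pseudocount of 0.1, TMM scaling or scaling without the 20 most abundant features. Leaving out gene models under 200 bp, an alternative chosen after seeing the data, removed 1 member. Leaving out a library would remove a whole group, so that was not run. No paired analysis was possible because there was a single library per group. Depth limits the members with under 50 reads in a library most.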
